A study of Mus musculus with 24 samples.

Results

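SEG cells were set against Sox17 cells at day 3, a comparison of 3 libraries with 3 libraries, or 6 of the 24 libraries of the series, over the 14804 genes with enough counts to test. Every library came from mouse heart cells grown in EGM2, a medium made for endothelial cells, and was read as messenger RNA counts per gene. The cells are called aiECs in the series' design text. The labels name the conditions SEG, Sox17, Erg and control, mark the cells of the first 3 as iEC and the control cells as fibroblasts, and give 3 libraries for each condition at day 3 and at day 7. SEG is not spelled out, so whether it holds a factor besides Sox17 and Erg is not known, and the way the factors were introduced, the strain, age and sex of the mice, and what the control cells received were not stated. The purpose stated for the series was to follow how far the cells acquired endothelial identity. The comparison of SEG with Sox17 asks what differs in cells that carry more than Sox17. Erg with control cells at day 3, and SEG with Sox17 cells at day 7, hold other libraries and are set beside it.

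Sox17 is a transcription factor of the SOX F group, which acts in endoderm and in arterial endothelium. Erg is an ETS family transcription factor kept on in endothelial cells, where it maintains junction and identity genes such as Cdh5. Arterial endothelium is marked by the Notch ligand Dll4, by the Hey repressors that Notch switches on, and by the connexins Gja5 and Gja4, while fibroblasts are known for collagens, decorin and Pdgfra.

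The 3 SEG libraries held 19467852, 26132435 and 26827713 counts, against 35229998, 32303228 and 22496193 in the 3 Sox17 libraries. The first principal component of the 6 libraries carried 76.35% of their variance and separated the conditions, with SEG libraries at −56.6 to −50.5 and Sox17 libraries at 52.9 to 55.7. No library of the 6 stood apart, and no pair of replicates was alike within sampling noise. Replicate 1 of Sox17 and replicate 1 of SEG at day 7, which enter the shared estimate of the spread, are the libraries in doubt: ribosomal protein genes took 7.47% and 5.17% of their counts, against 3.01% to 4.73% in the other 22 libraries. The labels are silent on whether replicates were separate cultures or mice, so the p-values rest on a spread that could be technical alone. In bulk RNA, more cells of a type and more RNA per cell cannot be told apart.

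The factors themselves were looked at first. Erg (ENSMUSG00000040732, chr16:95359169-95586593, minus strand of mm10) had 1281, 1269 and 1254 CPM (counts scaled to library size and composition) in SEG libraries, against 0.0811, 0.0294 and 0 CPM in Sox17 libraries. The log2 change was 14.72 ± 0.38 (SE) with an adjusted p of 5.91e-16 in edgeR's quasi-likelihood test. Every SEG library lay far above every Sox17 library. Erg cells had a mean of 7087 ± 46.9 CPM of Erg (SD, n = 3) and control cells 0.0330 ± 0.0572 CPM. Sox17 (ENSMUSG00000025902, chr1:4490931-4497354, minus strand) had 1016, 955 and 1054 CPM in SEG libraries and 1549, 1618 and 1653 CPM in Sox17 libraries. All SEG libraries lay below all Sox17 libraries, but the log2 change of −0.67 ± 0.28 did not pass (adjusted p = 0.0948). It did pass when only day 3 libraries were fitted (adjusted p = 2.79e-06), when only the 6 libraries were fitted (4.16e-06), and without the 2 day 7 libraries in doubt (8.68e-07). Reads of an introduced copy and of the cell's own gene cannot be told apart in these counts.

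At an adjusted p under 0.05, 2075 of the 14804 genes (14%) were higher in SEG cells and 2109 (14.2%) were lower. Among the higher genes 838 differed more than 2-fold and 329 more than 4-fold, and among the lower genes 872 and 354. Libraries of SEG and Sox17 did not overlap in 2061 of the higher and 2096 of the lower genes, where over all genes tested SEG libraries lay above in 26.8% and below in 27.7%. The count depends on which libraries estimate the spread: day 3 libraries alone gave 3618 higher (25.9%) and 3685 lower (26.4%) genes, and leaving out the 2 day 7 libraries in doubt gave 3575 (23.8%) and 3700 (24.7%), which include all 2075 and all 2109. No gene called here was called in the opposite direction in any alternative run. Use of strand in counting was not stated, so a value may include reads of a gene whose exons overlap on the opposite strand, as annotated for many of the genes below, Dll4, Gja5, Reln, Ephb1, Sox17, Nr2f2, Prox1, Matn2 and Col15a1 among them.

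**Figure D1:**
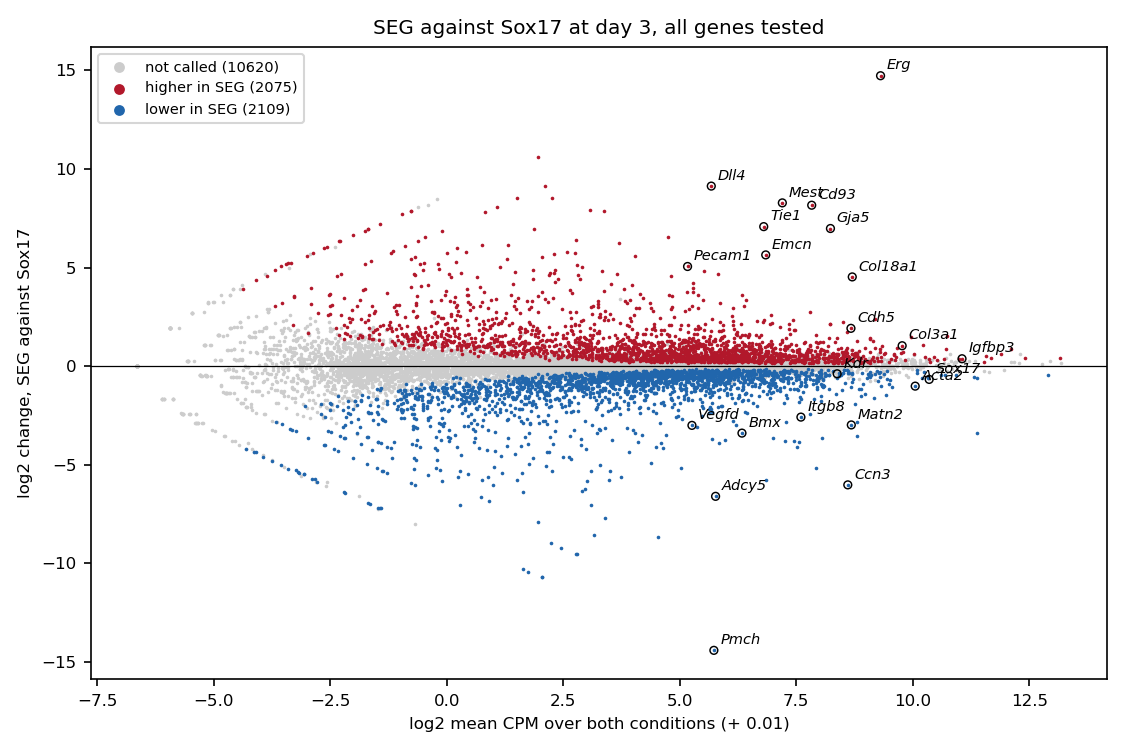
Each point is 1 of the 14804 genes tested, with its log2 mean CPM over both conditions on the horizontal axis and the log2 change of SEG against Sox17 at day 3 on the vertical axis. The 2075 higher genes are red and the 2109 lower genes blue; Erg lies highest, endothelial and arterial genes such as Dll4, Cd93 and Tie1 lie far up, and Pmch lies lowest.

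Endothelial genes were higher in SEG cells. Of 35 core endothelial genes, all tested, 25 were called higher (71.4%, beside 14% of all genes) and 0 lower. Their median log2 change was 2.13, where the median of all genes was 0.00. This list and those below were chosen with earlier results of these data known, so their shares are a description. With day 3 libraries alone 27 were higher and 2 lower, where 25.9% and 26.4% of all genes were. Tie1, a receptor tyrosine kinase of endothelium, had 229.8, 205 and 229 CPM in SEG libraries against 1.89, 1.24 and 1.81 CPM in Sox17 libraries (log2 change 7.07 ± 0.27, adjusted p = 8.83e-14). Cd93, a surface lectin of endothelial cells, had 485, 392 and 484 CPM against 1.51, 1.68 and 1.56 CPM (8.16 ± 0.30, adjusted p = 4.36e-14). Emcn, the sialomucin endomucin, had 224, 228 and 224 CPM in SEG libraries and 4.84, 4.24 and 4.46 CPM in Sox17 libraries (5.64 ± 0.21, adjusted p = 8.79e-14). In each of these genes the lowest SEG library exceeded the highest Sox17 library many times over. Pecam1, the junctional adhesion molecule CD31, had 70.2, 63.6 and 75.4 CPM against 2.46, 1.97 and 1.81 CPM (5.05 ± 0.17). Robo4, a guidance receptor of endothelium, had 20.4, 20.7 and 21.2 CPM against 0.0541, 0.0883 and 0.126 CPM (7.86 ± 0.37). Adgrl4, an adhesion G protein-coupled receptor of endothelial cells, had 49.5, 52.7 and 57.9 CPM against 0.649, 0.471 and 0.547 CPM (6.57 ± 0.38). Every one of these genes stood below 5 CPM in all Sox17 libraries. Tie1, Cd93, Robo4 and Adgrl4 are among the largest rises, a choice that required libraries not to overlap.

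Other endothelial genes were already on with Sox17, and their differences were smaller or did not pass. Cdh5, the VE-cadherin of endothelial junctions, had 646, 615 and 675 CPM in SEG libraries and 182, 170.5 and 160.0 CPM in Sox17 libraries, with no overlap (log2 change 1.92 ± 0.24, adjusted p = 2.96e-06), against a mean of 0.519 CPM in control cells. Kdr, the main VEGF receptor of endothelium, had 299, 258 and 307 CPM in SEG libraries and 413, 378 and 339 CPM in Sox17 libraries. Here the SEG libraries were the lower ones, yet the log2 change of −0.39 ± 0.26 did not pass (adjusted p = 0.324). It passed with day 3 libraries alone (0.000262), with the 6 libraries alone (0.00307) and without the 2 day 7 libraries in doubt (0.000386), each time as lower in SEG. Control cells had a mean of 0.877 CPM of Kdr, so both conditions were far above them. Flt1, a VEGF receptor that can act as a decoy, rose to 26.6, 22.9 and 28.1 CPM in SEG cells, against 4.35, 4.44 and 5.47 CPM with Sox17 (2.45 ± 0.25), and Erg cells had 204 ± 3.84 CPM (SD, n = 3). Both VEGF receptors were thus present in all 6 libraries. Tek, the angiopoietin receptor, was 1.04 ± 0.16 higher on the log2 scale. Vwf, the von Willebrand factor of endothelial granules, had 1.12, 1.17 and 1.57 CPM in SEG libraries and 0.568, 0.383 and 0.758 CPM in Sox17 libraries (adjusted p = 0.0152), a call lost without replicate 2 of Sox17 (0.0837) or replicate 3 of SEG (0.0783). Cldn5, an endothelial tight junction protein, had 23 counts over the 3 SEG libraries and 0 over the 3 Sox17 libraries, at least 9.97-fold higher against a floor of 3 counts over the group, and its call was lost with DESeq2 (adjusted p = 0.0515).

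**Figure D2:**
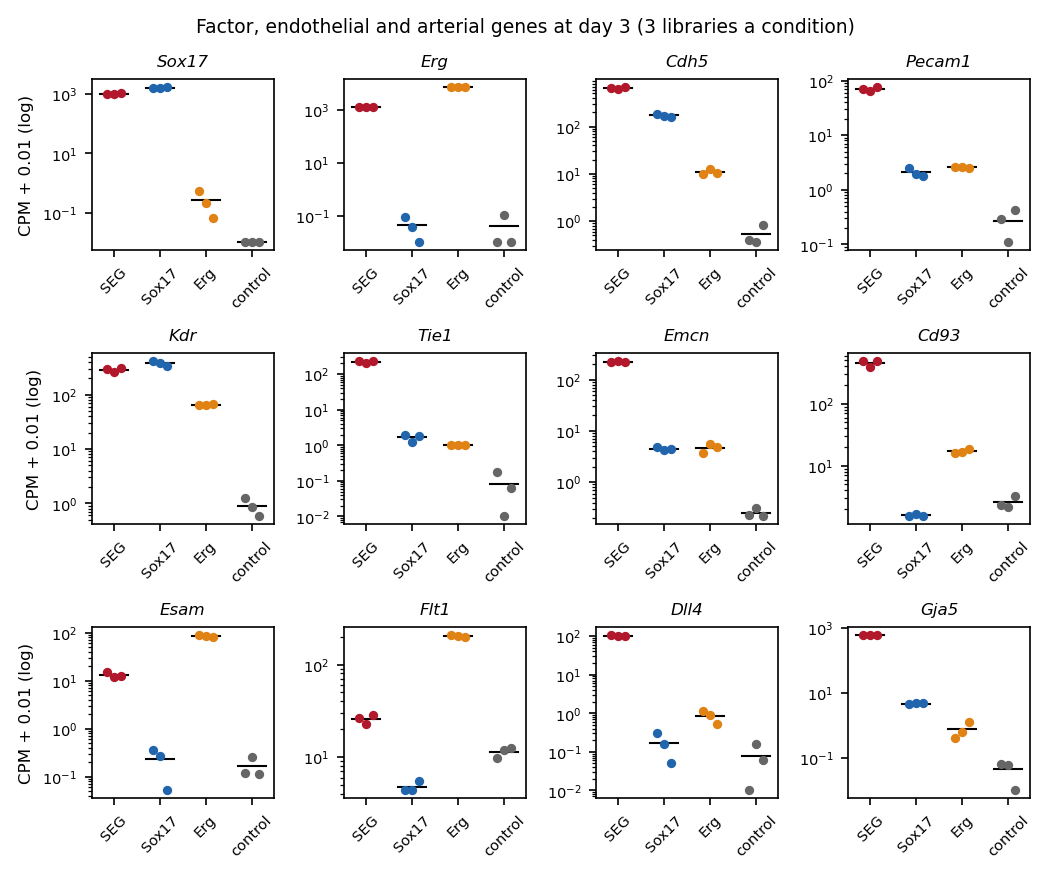
CPM (+ 0.01, log axis) of 12 factor, endothelial and arterial genes in the 3 libraries of SEG, Sox17, Erg and control at day 3, from left to right; points are libraries and the bar is their mean. SEG libraries lie above Sox17 libraries in every panel but Sox17 and Kdr, where they lie below.

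Arterial and Notch pathway genes were higher as well. Of 29 tested genes of 30 listed, 22 were called higher and 2 lower (75.9% and 6.9%, beside 14% and 14.2% of all genes). The median log2 change was 1.03. Dll4, the Notch ligand of arterial and tip cells, had 105, 102 and 99.2 CPM in SEG libraries against 0.297, 0.147 and 0.0421 CPM in Sox17 libraries (9.13 ± 0.36, adjusted p = 1.07e-13). Gja5, the arterial connexin 40, had 598, 592 and 602 CPM against 4.60, 4.86 and 4.76 CPM (6.98 ± 0.26, adjusted p = 8.11e-14). Gja4, connexin 37, had 80.1, 68.2 and 73.8 CPM against 4.14, 3.09 and 4.97 CPM (4.19 ± 0.23). Each of these genes separated the libraries completely, as the rule that chose Dll4 and Gja5 required. In Erg cells none of the 3 averaged above 1.65 CPM. Nrarp, a feedback inhibitor that Notch switches on, was 4.41 ± 0.37 higher on the log2 scale. The Notch target repressor Hey1 had 44.3, 38.6 and 39.4 CPM in SEG libraries and 20.6, 15.2 and 18.4 CPM in Sox17 libraries (1.17 ± 0.15, adjusted p = 4.64e-06). These 2 genes report on Notch activity in many tissues, and libraries did not overlap in either. Cxcr4, the chemokine receptor of migrating and arterial endothelial cells, had 25.1, 19.3 and 21.1 CPM against 1.32, 1.18 and 1.09 CPM (4.17 ± 0.32). Efnb2, the ephrin of arteries, had 296, 257 and 295 CPM against 229.6, 231 and 218 CPM, and its log2 change of 0.32 ± 0.22 did not pass (adjusted p = 0.326), although it passed with day 3 libraries alone (0.004) and with the 6 libraries alone (0.00185). Further members, chosen after their values were seen, were the ligand Jag1 (1.40 ± 0.23), the receptors Notch1 (1.03 ± 0.22) and Notch4 (0.64 ± 0.08), and the target genes Heyl (1.88 ± 0.12) and Hes1 (0.83 ± 0.16), all called higher.

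Bmx, a cytoplasmic tyrosine kinase of arterial endothelium and endocardium, went the other way. It had 13.3, 13.3 and 15.4 CPM in SEG libraries and 168, 141 and 133 CPM in Sox17 libraries (log2 change −3.39 ± 0.10, adjusted p = 6.04e-15). The lowest Sox17 library was well above the highest SEG library. Erg cells averaged 2.41 CPM of Bmx and control cells 5.19 CPM. The other listed arterial gene that was lower, named after its value was seen, was the elastic fibre gene Fbln5 (−0.35 on the log2 scale).

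The stretch around the transcription start was read for these genes, since ETS and SOX factors bind short DNA words and the promoters of genes that moved together are of interest. RefSeq (GRCm38.p6) promoters, 250 bases before to 50 after the start, matched 11173 of the 14804 tested genes. They were searched on both strands for the ETS word ACNGGAA and the SOX words ACAATGG and ACAAAG. Below are the promoters of Emcn (chr3:137340828-137341127, plus strand), Tie1 (chr4:118489800-118490099, minus strand) and Gja5 (chr3:97032152-97032451, plus strand), which were higher in SEG, and of Bmx (chrX:164258144-164258443, minus strand), which was lower, each 5′ to 3′ on the gene's strand with matches in capitals, a word on the other strand being printed as its complement (TTCCNGT for ETS). No matches overlap in these promoters.
Emcn: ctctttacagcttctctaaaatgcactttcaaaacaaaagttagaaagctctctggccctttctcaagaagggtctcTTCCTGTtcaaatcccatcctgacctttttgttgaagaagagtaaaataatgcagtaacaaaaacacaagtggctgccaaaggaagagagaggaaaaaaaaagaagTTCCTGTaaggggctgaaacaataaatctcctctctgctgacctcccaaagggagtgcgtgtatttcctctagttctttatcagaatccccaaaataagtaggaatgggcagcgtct
Tie1: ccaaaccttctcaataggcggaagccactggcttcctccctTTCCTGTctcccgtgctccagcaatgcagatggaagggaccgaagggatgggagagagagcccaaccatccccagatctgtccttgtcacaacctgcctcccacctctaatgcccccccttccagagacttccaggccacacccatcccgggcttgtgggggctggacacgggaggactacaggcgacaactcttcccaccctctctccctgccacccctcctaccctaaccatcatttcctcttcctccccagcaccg
Gja5: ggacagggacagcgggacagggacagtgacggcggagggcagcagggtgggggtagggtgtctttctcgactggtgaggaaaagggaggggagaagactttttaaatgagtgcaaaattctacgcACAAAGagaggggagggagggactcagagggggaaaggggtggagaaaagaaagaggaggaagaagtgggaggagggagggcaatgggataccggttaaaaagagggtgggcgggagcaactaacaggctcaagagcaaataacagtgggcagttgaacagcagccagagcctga
Bmx: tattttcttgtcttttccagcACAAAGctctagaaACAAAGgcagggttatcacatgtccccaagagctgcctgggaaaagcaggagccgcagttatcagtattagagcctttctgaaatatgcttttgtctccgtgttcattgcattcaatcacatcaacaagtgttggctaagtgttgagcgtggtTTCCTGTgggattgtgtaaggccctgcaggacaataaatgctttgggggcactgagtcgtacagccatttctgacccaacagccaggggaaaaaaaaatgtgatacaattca
Emcn held the ETS word at 2 places and Tie1 at 1, Gja5 held none but had 1 ACAAAG, and Bmx held 1 ETS word and 2 ACAAAG. The promoters printed are examples that each hold a match. Those of Dll4, Cd34 and Hhex, also higher in SEG, held none of these words. A match is a description of the letters, not a binding site.

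Over all matched promoters the ETS word stood in 18% of those of higher genes, 16.4% of those of lower genes, 19.3% of the 8002 of genes not called and 18.7% of all 11173. Among genes that differed more than 4-fold it stood in 20.3% of 227 higher and 13.4% of 239 lower promoters. ACAAAG stood in 15.1% of higher, 14.5% of lower and 13.7% of all promoters, and ACAATGG in 2.13%, 1.48% and 1.95%.

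Transcription factors of endothelium were mostly higher too, 14 of 24 tested (of 26 listed) against 2 lower, with a median log2 change of 0.63. These are 58.3% and 8.33%, beside 14% and 14.2% of all genes. Hhex, a homeobox factor of endothelial and endodermal precursors, had 14.7, 14.3 and 14.2 CPM in SEG libraries against 0.432, 0.441 and 0.463 CPM in Sox17 libraries (5.0 ± 0.20, adjusted p = 1.15e-13). Bcl6b, a zinc finger repressor of endothelium, had 52.9, 50.8 and 47.4 CPM against 4.14, 4.15 and 4.25 CPM (3.59 ± 0.23). Lmo2, an adaptor of blood and vessel transcription complexes, had 37.6, 34.3 and 39.6 CPM against 3.76, 3.88 and 4.63 CPM (3.19 ± 0.15). Replicates were tight in both conditions for these 3. Of the other SOX F factors, Sox7 was 1.31 ± 0.23 higher on the log2 scale, and Sox18 had 131 counts over the SEG libraries against 1 over the Sox17 libraries, a ratio of 170 (95% counting interval 30.1 to 6780, which covers counting error only). The ETS factor Fli1, a close relative of Erg, was 0.45 ± 0.14 higher (adjusted p = 0.0166), a call lost without replicate 1 of SEG (adjusted p = 0.083), replicate 2 of Sox17 (0.0724) or replicate 3 of Sox17 (0.0685). The 2 members called lower, named after their values were seen, were Gata2 (−0.40) and Nr2f1 (−1.23).

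Venous and lymphatic genes were divided. Of 16 tested of 20 listed, 8 were called higher and 4 lower (50% and 25%, beside 14% and 14.2% of all genes). Nr2f2, the nuclear receptor that sets venous identity, had 63.8, 53.1 and 55.5 CPM in SEG libraries against 24.8, 24.9 and 23.3 CPM in Sox17 libraries (1.24 ± 0.12, adjusted p = 5.84e-08). Lyve1, a hyaluronan receptor of lymphatic endothelium, was at 3.17, 3.47 and 3.92 CPM against 0.568, 0.971 and 0.379 CPM (2.42 ± 0.33). Prox1, the factor that sets lymphatic identity, had 1.53, 1.28 and 1.20 CPM against 6.19, 4.71 and 4.04 CPM (−1.91 ± 0.24). Both lymphatic genes were low in both conditions and moved in opposite directions. Reln, a secreted protein made by lymphatic vessels and neurons, had 0.0511, 0.113 and 0.112 CPM in SEG libraries against 24.3, 20.3 and 18 CPM in Sox17 libraries (−7.69 ± 0.57). Stab2, a scavenger receptor of sinusoids and lymphatics, had 0, 0.113 and 0.112 CPM against 1.41, 1.44 and 2.02 CPM (−4.23 ± 0.69).

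Among angiogenic ligands and receptors 11 of 27 tested were higher and 5 lower (40.7% and 18.5%, beside 14% and 14.2% of all genes). With day 3 libraries alone 12 were higher and 10 lower, where 25.9% and 26.4% of all genes were. Esm1, a proteoglycan secreted by tip cells, had 84.7, 80.3 and 82.6 CPM in SEG libraries against 6.92, 8.68 and 8.76 CPM in Sox17 libraries (3.35 ± 0.20). Vegfd, a ligand of the lymphatic VEGF receptor, had 6.95, 8.79 and 9.68 CPM against 69.3, 68.4 and 66.8 CPM (−3.0 ± 0.11, adjusted p = 7.58e-14). In control cells Vegfd averaged 133 ± 4.19 CPM (SD, n = 3), so SEG cells held the lowest mean of the 4 conditions at day 3, with Erg cells at 30.9 CPM. Among ligands picked after their values were seen, Pdgfb, which recruits mural cells, was higher in SEG with a mean of 40.1 ± 0.747 CPM against 7.37 ± 0.730 CPM, and so was the Tek ligand Angpt2 with 12.2 ± 1.68 CPM against 2.49 ± 0.504 CPM (SD, n = 3 each).

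Junction, adhesion and guidance genes followed. Of 25 junction genes 14 were higher and 3 lower (median 1.10), and of 31 guidance genes 15 and 4 (median 0.62). These are 56% and 12%, and 48.4% and 12.9%, beside 14% and 14.2% of all genes. Esam, an endothelial adhesion molecule, had 15, 11.8 and 12.6 CPM in SEG libraries against 0.351, 0.265 and 0.0421 CPM in Sox17 libraries (5.75 ± 0.27), while Erg cells averaged 84.7 CPM. Ocln, the tight junction protein occludin, had 408 counts over the SEG libraries and 1 over the Sox17 libraries, a ratio of 531 (95% counting interval 94.7 to 21000). Efna1, a ligand of Eph receptors, had 25.7, 27.0 and 25.6 CPM against 3.41, 2.71 and 2.44 CPM (3.18 ± 0.23). SEG libraries were the higher ones for all 3. Ephb1, a receptor of B-class ephrins, had 1 count over the SEG libraries and 1329 over the Sox17 libraries, 1020-fold lower in SEG (95% counting interval 183 to 40400), and Erg cells averaged 3.68 CPM of it.

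Integrin subunits were mostly higher, whereas counts of basement membrane genes lay near those of all genes. Of 17 integrin subunits 13 were higher and 3 lower (76.5% and 17.6%, beside 14% and 14.2% of all genes). Itgb3, the beta subunit of the vitronectin receptor, had 125, 106 and 127 CPM in SEG libraries against 20.3, 20.5 and 20.7 CPM in Sox17 libraries (2.54 ± 0.07, adjusted p = 3.99e-15), and Itga2, a collagen receptor subunit, had 68.7, 58.6 and 65.9 CPM against 11.3, 8.80 and 5.56 CPM (2.90 ± 0.35). Itgb8, a subunit that activates latent TGF-beta, had 55.1, 50.8 and 60.5 CPM against 392, 349 and 255 CPM (−2.58 ± 0.40). The other 2 lower subunits, named after their values were seen, were the laminin receptors Itga7 (−2.06 ± 0.10) and Itga6 (−1.62 ± 0.29). Basement membrane genes were called higher in 3 and lower in 4 of 20 (15% and 20%, beside 14% and 14.2% of all genes), with a median of −0.03. With day 3 libraries alone 7 were higher and 9 lower, where 25.9% and 26.4% of all genes were. Col18a1, whose fragment is endostatin, had 829, 732 and 832 CPM against 32.3, 33.9 and 37.9 CPM (4.52 ± 0.09, adjusted p = 8.55e-18). Col15a1, its relative, had 521, 424 and 529 CPM against 114, 117 and 99.3 CPM (2.16 ± 0.17). Both were clearly separated, as were 2 genes that were lower: Col4a6, a type IV collagen chain, with 21.7, 25.8 and 22.1 CPM in SEG libraries against 344, 331 and 303 CPM in Sox17 libraries (−3.81 ± 0.27), and Lama1, the laminin chain of early embryos, with 8.90, 8.11 and 9.42 CPM against 123, 118 and 111 CPM (−3.73 ± 0.22).

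Fibroblast genes were not lower as a group. Of 36 tested, 17 were called higher and 3 lower (47.2% and 8.33%, beside 14% and 14.2% of all genes), with a median of 0.28. Tested for changes beyond 1.5-fold, 4 were higher and 1 lower (5.09% and 5.24% of all genes), and with day 3 libraries alone 22 were higher and 8 lower (25.9% and 26.4% of all genes). Summed over the 36 genes, SEG libraries held 44890 to 48310 CPM, Sox17 libraries 40350 to 41810, Erg libraries 56300 to 57790 and control libraries 76690 to 81730. Col3a1, a fibrillar collagen, had 1149, 1094 and 1283 CPM in SEG libraries against 576, 599.9 and 545 CPM in Sox17 libraries (1.03 ± 0.14, adjusted p = 9.38e-06). Dcn, the proteoglycan decorin, had 164, 151 and 172 CPM against 114, 108 and 102 CPM (0.58 ± 0.11). Both were higher in SEG, and control means were 4522 CPM of Col3a1 and 684 CPM of Dcn. Col1a1, the main collagen of fibroblasts, had 8889, 8102 and 8876 CPM against 7020.0, 7278 and 7348 CPM (0.26 ± 0.11, adjusted p = 0.0934), and Pdgfra, a receptor that marks fibroblasts, had 113, 104 and 121 CPM against 186, 164 and 144 CPM (−0.55 ± 0.24, adjusted p = 0.107). These 2 did not pass, although libraries did not overlap, and both passed with day 3 libraries alone, Col1a1 as higher and Pdgfra as lower. Tbx20, a heart transcription factor, was 1.02 ± 0.29 higher (adjusted p = 0.0105), a call lost without replicate 3 of Sox17 (adjusted p = 0.0598). Pi16, the called fibroblast gene with the largest change, was lower in SEG, and the next, Meox1, was higher (1.09).

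Contractile genes of smooth muscle and myofibroblasts were lower in SEG cells. Of 18 tested, 10 were called lower and 2 higher (55.6% and 11.1%, beside 14.2% and 14% of all genes), with a median of −0.81. Acta2, smooth muscle actin, had 642, 836 and 632 CPM in SEG libraries against 1124, 1461 and 1674 CPM in Sox17 libraries (−1.01 ± 0.18, adjusted p = 0.00016). Myl9, the regulatory myosin light chain, had 35.1, 49.2 and 30.2 CPM against 221, 282 and 318 CPM (−2.84 ± 0.29). Cnn1, calponin, had 2.61, 4.34 and 2.17 CPM against 21.0, 30.3 and 34.7 CPM (−3.23 ± 0.31). No SEG library reached the lowest Sox17 library in these genes. Actg2, enteric smooth muscle actin, was lower by a log2 change of −4.34 ± 0.38, and the actin-binding Tagln by −1.0 ± 0.21. Control cells averaged 282 CPM of Acta2 and 15.3 CPM of Myl9, so the means of both conditions were above theirs. Pericyte genes were called higher in 6 of 10 (60%, beside 14% of all genes) and lower in 0. Among those higher were Mcam (2.29 ± 0.12), which endothelium also expresses, and Cspg4 (1.96 ± 0.18), the proteoglycan NG2. The pericyte marker Rgs5 overlapped, with 7.36, 4.49 and 8.9 CPM in SEG against 8.43, 5.71 and 5.26 CPM in Sox17 libraries. Abcc9 was at 0.409 CPM or less and Kcnj8 had 0 counts in all 6 libraries. Summed pericyte genes ran from 619 to 716 CPM in SEG and from 307 to 338 CPM in Sox17 libraries. Erg libraries held 979 to 990 CPM and control libraries 1298 to 1366 CPM, so both were above SEG.

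**Figure D3:**
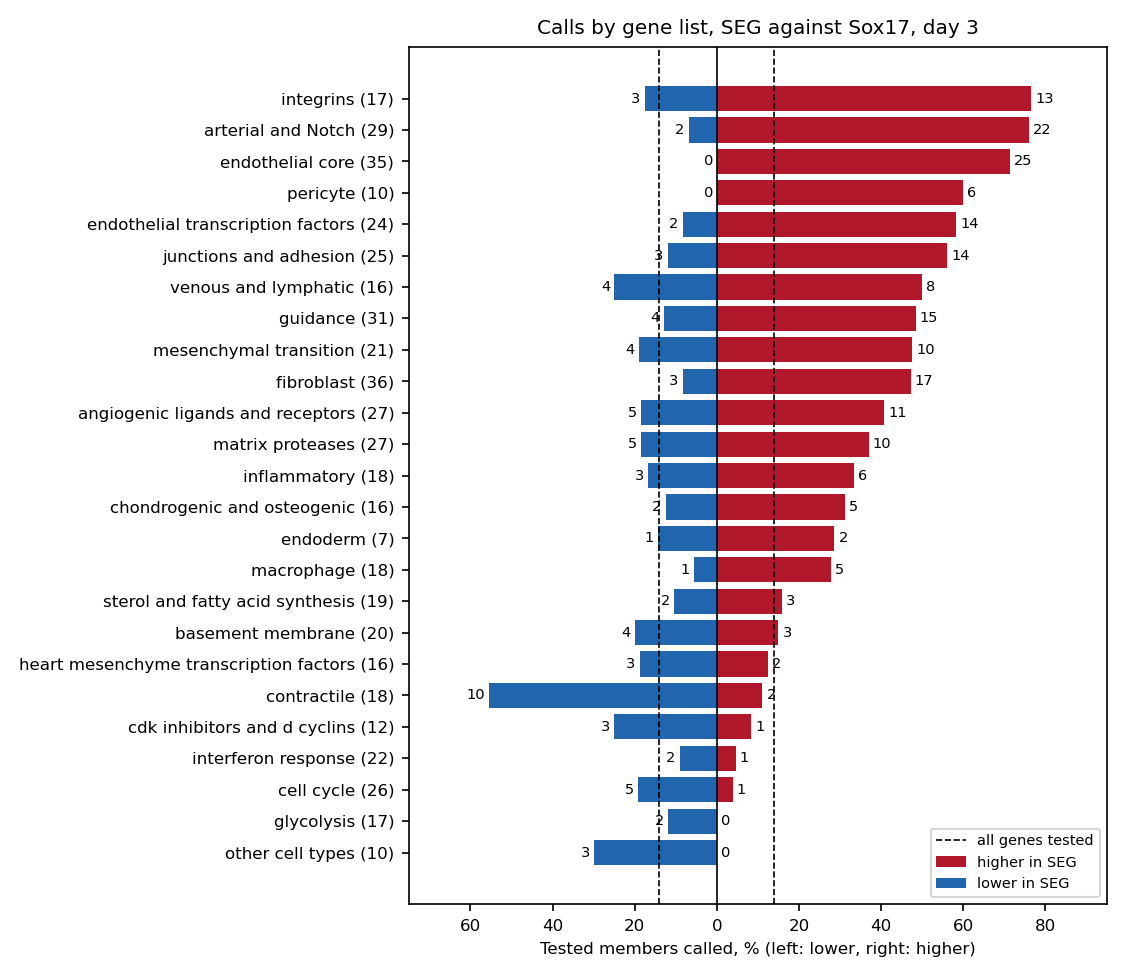
Share of each list's tested members called higher (right, red) and lower (left, blue) in SEG against Sox17 at day 3, with the number called beside each bar and the number tested in brackets; dashed lines mark the shares over all genes tested, 14% and 14.2%. Integrin, arterial and endothelial lists reach furthest to the right, the contractile list furthest to the left.

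Several genes with the largest falls belong to no vascular list. Pmch, the precursor of a hypothalamic neuropeptide, had 0 counts in all 3 SEG libraries and 100.3, 112 and 107 CPM in Sox17 libraries, at least 2570-fold lower; its exons overlap Parpbp on the opposite strand. Ccn3, a matricellular protein, had 11.3, 11.3 and 12.9 CPM in SEG libraries against 827, 761 and 713 CPM in Sox17 libraries (−6.02 ± 0.19, adjusted p = 9.55e-15). Adcy5, an adenylyl cyclase of heart and brain, had 1.38, 0.943 and 1.05 CPM against 107, 109.9 and 107 CPM (−6.60 ± 0.21). The rule that chose these 3 genes required libraries not to overlap and a mean of at least 10 CPM with Sox17. Means in Erg and control cells were 0.0188 and 0.0351 CPM of Pmch, 22.1 and 20.9 CPM of Ccn3, and 5.17 and 4.66 CPM of Adcy5, so of the 4 conditions at day 3 the Sox17 cells stood out. The rest of the 12 largest falls were Cyp2j5 (−8.65 ± 0.38), Akr1c18 (−7.04 ± 0.50), Syndig1 (−6.31 ± 0.41), Xkrx (−6.22 ± 0.46), Reln and Ephb1 as described above, and Pex5l, Lipf and Ces1g. SEG libraries held only 1 count of Pex5l, 1 of Lipf and 3 of Ces1g, and these genes were lower by ratios of 1000 (95% counting interval 179 to 39600), 785 (141 to 31000) and 419 (143 to 2030). Cyp2j5, Ces1g and Akr1c18 belong to families of close relatives, among which reads can be split. Matrix proteases and their inhibitors were called higher in 10 and lower in 5 of 27 (15 and 9 with day 3 libraries alone), and chondrogenic and osteogenic genes in 5 and 2 of 16 (8 and 2). These are 37% and 18.5%, and 31.2% and 12.5%, beside 14% and 14.2% of all genes (25.9% and 26.4% with day 3 libraries alone). Matrix genes with large falls were Matn2, a matrilin, with 85.7, 96.3 and 95 CPM against 751, 724 and 709.5 CPM (−2.98 ± 0.10), the collagenase Mmp13 (−4.09 ± 0.28) and the protease Adamts15 (−4.62 ± 0.32).

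**Figure D4:**
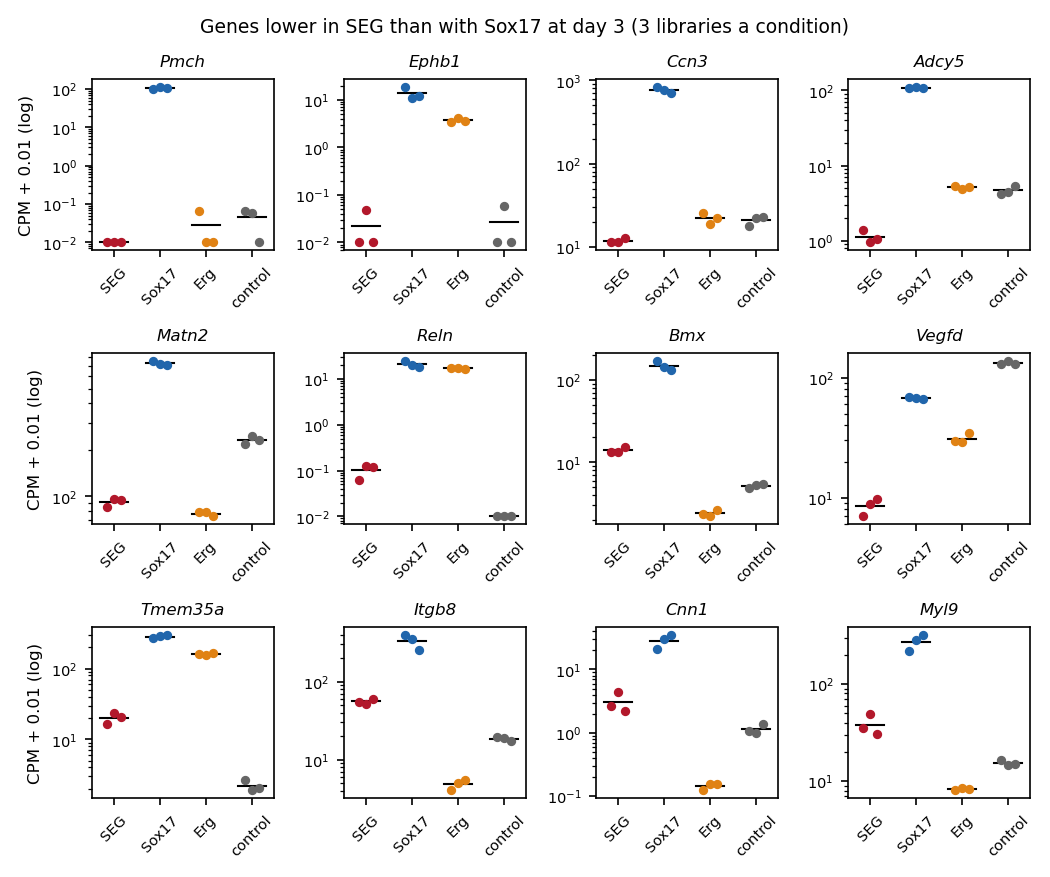
CPM (+ 0.01, log axis) of 12 genes called lower in SEG than in Sox17 cells, in the 3 libraries of SEG, Sox17, Erg and control at day 3, from left to right; points are libraries and the bar is their mean. Pmch, Ccn3 and Adcy5 are high with Sox17 alone, whereas Reln, Ephb1 and Tmem35a are high in Erg cells as well.

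Large rises outside the endothelial lists included Mest, an imprinted gene of mesoderm, with 312, 253 and 314 CPM in SEG libraries against 1.49, 0.618 and 0.631 CPM in Sox17 libraries (8.28 ± 0.32, adjusted p = 8.83e-14). Its exons overlap Copg2 on the opposite strand. Clic6, an intracellular chloride channel protein, was 7.93 ± 0.36 higher on the log2 scale, the cytokine Ltb 6.39 ± 0.48, the lipid transporter Abca4 6.22 ± 0.24 and Acod1, the enzyme that makes itaconate, 5.81 ± 0.36. Among inflammatory genes 6 of 18 were higher and 3 lower (33.3% and 16.7%, beside 14% and 14.2% of all genes). Ptgs2, the inducible cyclooxygenase, had 206, 212 and 217 CPM in SEG libraries against 34.8, 37.8 and 33.1 CPM in Sox17 libraries (2.59 ± 0.26). The chemokine Cxcl5 was lower (−1.91 ± 0.30). Bmp4, a growth factor of mesoderm, was higher with 88.9, 91.5 and 86.5 CPM against 28.6, 24.1 and 25.8 CPM (1.77 ± 0.10).

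Mesenchymal transition genes were called higher in 10 and lower in 4 of 21 (47.6% and 19%, beside 14% and 14.2% of all genes). The median was 0.27, and beyond 1.5-fold 2 were higher and 0 lower, where 5.09% and 5.24% of all genes were. The growth factor Tgfb1 had 301, 283 and 283 CPM in SEG libraries and 121, 128 and 129 CPM in Sox17 libraries (1.20 ± 0.18), and the repressors Zeb1 (1.0 ± 0.20) and Snai2 (0.97 ± 0.14) were higher too, while the cadherin Cdh11 was lower (−1.03 ± 0.30). Cell cycle genes were lower in 5 and higher in 1 of 26, a share of 19.2% lower beside 14.2% of all genes. With day 3 libraries alone 17 were lower and 3 higher, where 26.4% and 25.9% of all genes were. Mki67, a marker of cycling cells, had 50.4, 53.9 and 62.5 CPM against 76.1, 73.6 and 57.6 CPM, with overlap (adjusted p = 0.224), and passed as lower with day 3 libraries alone (0.0247) and with the 6 alone (0.034). The cell cycle inhibitor Cdkn1c was higher (1.41 ± 0.20), and Cdkn1a was lower with 312, 320.4 and 316 CPM against 382, 405 and 437 CPM (−0.37 ± 0.08). Of 12 CDK inhibitors and D cyclins 1 was higher and 3 lower (8.33% and 25%), or 2 and 6 with day 3 libraries alone. Of 17 glycolysis genes 2 were lower (11.8%) and 0 higher, and with day 3 libraries alone 5 were lower and 5 higher. Pfkfb3, which drives glycolysis in endothelial sprouting, had 62.4, 62.9 and 68.2 CPM against 252, 241 and 213 CPM (−1.87 ± 0.19, adjusted p = 2.58e-07), and the glucose transporter Slc2a1 was lower by −0.35. Sterol and fatty acid synthesis genes were called higher in 3 and lower in 2 of 19 (8 and 5 with day 3 libraries alone), and heart mesenchyme transcription factors in 2 and 3 of 16 (7 and 5). In the main fit these are 15.8% and 10.5%, and 12.5% and 18.8%. Interferon response genes were called higher in 1 and lower in 2 of 22 (4.55% and 9.09%), or in 4 and 2 with day 3 libraries alone.

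Markers of other cells were measured beside these groups. The 18 macrophage genes summed to 192 to 205 CPM in SEG libraries and 106 to 126 CPM in Sox17 libraries. Most of it was Lyz2, a lysozyme with a near-identical relative, at 137, 136 and 146 CPM against 75.6, 61.6 and 64.5 CPM. Of the 18 genes 5 were called higher and 1 lower (27.8% and 5.56%, beside 14% and 14.2% of all genes). The defining macrophage markers Ptprc, Csf1r, Adgre1 and C1qa lay between 0.253 and 7.20 CPM in all 6 libraries. Of genes of other cell types, such as cardiomyocytes and epithelium, 0 of the 10 tested were higher and 3 lower (30%). Myh6, Cdh1 and Epcam were at 0.505 CPM or less in every library, and the muscle troponin Tnnt2 had 5.42, 6.64 and 5.72 CPM in SEG against 10.3, 9.71 and 12.5 CPM in Sox17 libraries (adjusted p = 0.0576), which passed as lower with day 3 libraries alone (4.83e-06), with the 6 alone (0.000415), without the 2 day 7 libraries in doubt (2.9e-05) and with DESeq2 (0.0312). Of 20 endoderm genes only 7 had enough counts to test, 2 of them higher and 1 lower (28.6% and 14.3%). The part of any of these cells in the differences above was not tested.

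Day 7 libraries gave the same direction for most genes; they entered none of the day 3 CPM, though they share in the estimate of the spread behind the day 3 p-values. Of the 2075 genes higher at day 3, 1934 (93.2%) had a positive difference at day 7 and 1587 (76.5%) were called higher, where 18.8% of all genes were. Of the 2109 lower genes, 1967 (93.3%) had a negative difference and 1558 (73.9%) were called lower, where 21.2% of all genes were. In the opposite direction 41 and 33 were called. Without the 2 day 7 libraries in doubt, 1948 and 1983 kept the sign and 1670 and 1657 were called in the same direction. The day 7 difference minus the day 3 difference was itself positive and past the test for 153 of the higher genes and negative for 193, where over all genes 3.61% and 3.87% were. As the day 3 difference chose these genes and also enters this one, these 2 counts are a description. Dll4 averaged 265 ± 3.38 CPM in SEG and 0.678 ± 0.0495 CPM in Sox17 libraries at day 7, and Tie1 533 ± 7.83 CPM and 4.66 ± 1.26 CPM (SD, n = 3 each). Kdr did not pass at day 7 either, though its sign there was the opposite of that at day 3 (log2 change 0.67, adjusted p = 0.051). It averaged 235 ± 45.2 CPM in SEG and 148 ± 71.5 CPM in Sox17 libraries at day 7. The change of its difference between the days was 1.06 and did not pass (adjusted p = 0.101). Without the 2 day 7 libraries in doubt that change was 0.86 and passed (adjusted p = 6.16e-05).

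The effect of the other named factor alone was taken from Erg and control cells at day 3, 6 libraries that are in neither the SEG nor the Sox17 group and share only the estimate of the spread. Of the 2075 genes higher in SEG, 826 (39.8%) were also higher in Erg than in control cells and 534 (25.7%) were lower, where 22.6% and 23.5% of all genes were. Of the 2109 genes lower in SEG, 825 (39.1%) were lower in Erg cells and 413 (19.6%) higher. Endothelial core genes were called higher in Erg than in control cells in 25 of 35, the count found for SEG against Sox17, while of the 36 fibroblast genes 7 were higher and 20 lower in Erg cells. The 2 differences were tested against each other in the same fit. They do not hold like levels of Erg, since Erg cells held far more Erg transcript than SEG cells. The part of this was not tested. The SEG against Sox17 difference was greater than the Erg against control difference for 1047 (50.5%) of the higher genes and smaller for 232 (11.2%), where over all genes 18.2% and 17.8% were called. Both differences were taken with their sign. For the lower genes the SEG against Sox17 difference was smaller, that is further down, in 990 (46.9%) and greater, that is less far down, in 200 (9.48%). These shares lean one way by construction, since the same SEG and Sox17 libraries chose the genes. Of the 35 core endothelial genes, the SEG against Sox17 difference was greater for 11, smaller for 10 and not called for 14.

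**Figure D5:**
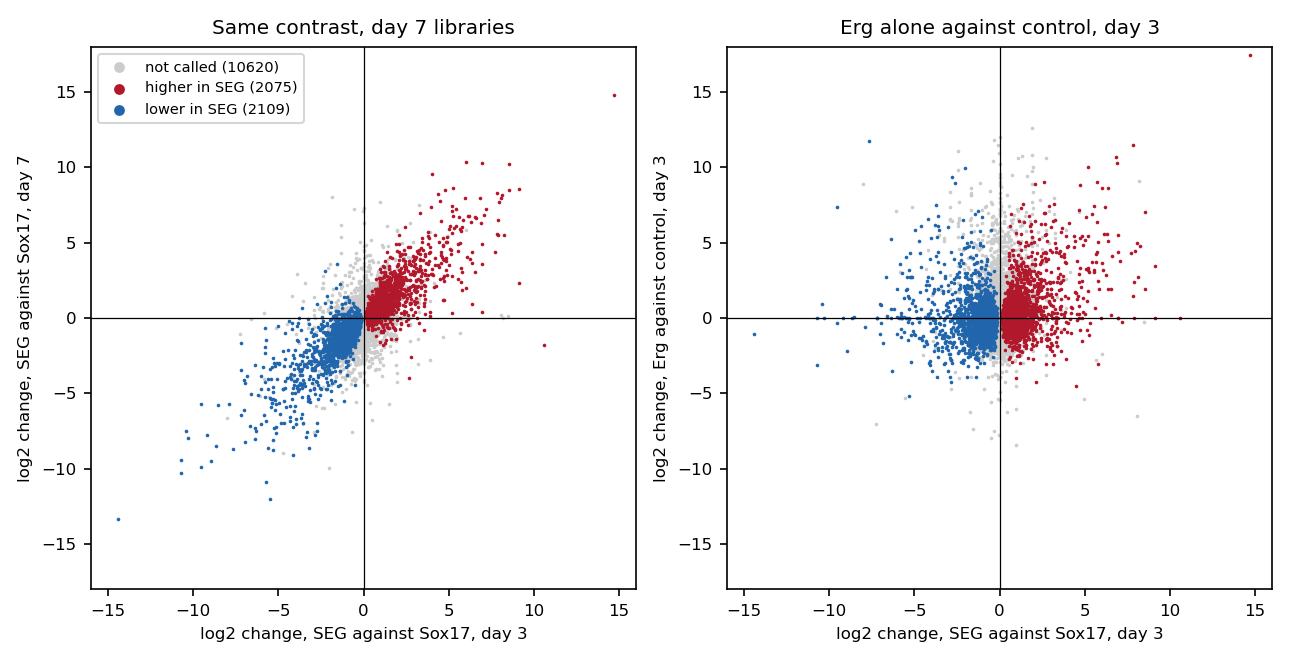
The log2 change of SEG against Sox17 at day 3 (horizontal) is set against that at day 7 (left panel) and against that of Erg against control at day 3 (right panel), 1 point per gene tested. Genes higher at day 3 (red) lie mostly above 0 and lower genes (blue) mostly below 0 on the left, and on both sides of 0 on the right.

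Single endothelial genes differed in this test. Cd93 was 8.16 higher on the log2 scale in SEG than in Sox17 cells and 2.75 higher in Erg than in control cells, a difference of 5.41 (adjusted p = 6.74e-10). Dll4 and Adgrl4 also had positive positive differences, 5.70 (adjusted p = 0.00327) and 6.38 (0.000298). Adgrl4 averaged 0.178 CPM in Erg and 0.156 CPM in control cells. Col18a1 did not pass between Erg and control cells (adjusted p = 0.113), at means of 37.9 and 42.2 CPM, and its difference of 4.68 was called (adjusted p = 2.01e-16). Other genes with large positive differences were Ccdc88c, which binds Dishevelled, at 6.34 (adjusted p = 0.000278), and the actin-severing Scin at 5.23 (4.51e-08). For Hhex the changes were 5.0 and 5.17, and the difference of −0.17 ± 0.33 did not pass (adjusted p = 0.797). Esam and Flt1 changed more between Erg and control cells, by 9.04 and 4.15, with differences of −3.29 (adjusted p = 6.48e-05) and −1.70 (0.000443). Kdr was 6.23 higher in Erg than in control cells on the log2 scale, at means of 65.5 and 0.877 CPM, and its difference was −6.61 (adjusted p = 1.07e-09).

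For 4 of the 5 genes with the largest negative differences, the means in both Sox17 and Erg cells were above those in both SEG and control cells. The exception was Pex5l, which did not pass between Erg and control cells (adjusted p = 0.825). Reln averaged 0.0921 CPM in SEG, 20.9 CPM in Sox17 and 16.9 CPM in Erg cells, and had 0 counts in control cells. Scube1, a secreted protein of vessels and platelets, averaged 1.62 CPM in SEG, 21.8 CPM in Sox17, 107 CPM in Erg and 0.569 CPM in control cells, and its difference was −11.28 (adjusted p = 5.62e-14). Tmem35a, a chaperone of nicotinic receptors, averaged 20.3 CPM in SEG, 284 CPM in Sox17, 162 CPM in Erg and 2.20 CPM in control cells (adjusted p of the difference 3.55e-17). Ephb1 averaged 0.0126 CPM in SEG, 13.7 CPM in Sox17, 3.68 CPM in Erg and 0.0165 CPM in control cells. SEG cells were not tested against Erg cells here.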

How the data were processed

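Messenger RNA libraries of mouse heart cells were quantified by the authors, and they deposited raw counts, whole numbers per gene, for 24 libraries, 3 for each of 4 conditions at 2 days. Per the submitters' processing notes the tools were Salmon and DESeq2 and the build mm10; how these were set, which annotation was used, whether strand was used and how values became whole are not given in the sources used. Of 35727 identifiers, 35422 carry a gene name.

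Genes were kept by edgeR's filterByExpr (minimum count 10), scaled by TMM and tested with edgeR 4.0.16's quasi-likelihood test (limma 3.58.1, R 4.3.3), in 1 fit of all 24 libraries with condition and day as groups, and p-values were adjusted by Benjamini and Hochberg over all 14804 genes, with 0.05 as the threshold. The prior count for fold changes was 0.125. CPM use TMM-scaled library sizes. On simulated data the procedure recovered 73 of 100 simulated 2-fold changes and 93 of 100 4-fold ones in this comparison of 14804 genes, with 13 false calls. Far fewer genes were changed there than were called in the data, so these rates may differ from those here. Total counts ran from 18794422 to 44586227. Floors and counting intervals (95%) cover counting error only.

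Groups came from the sample titles. The genes named are Sox17 and Erg, the 12 largest rises and falls (10 CPM or more where higher, no overlap of libraries), the 4 or fewer most changed called members per list, fixed markers, and the 5 largest differences of either sign in the day and Erg contrasts; others are said to be picked after their values were seen, and 1 gene that this rule names is not reported here. The members and the 25 lists (510 genes, 472 tested) were chosen with earlier results of these data known. Alternatives were RLE scaling, no filter, DESeq2 1.42.0, a 1.5-fold minimum, fewer libraries in the fit, a replicate block and leaving out each replicate. Promoters came from RefSeq tables and overlaps from GENCODE vM21, both on the mouse build GRCm38 that mm10 names. Tables and plots were made with Python 3.11.15, pandas 2.3.3, scipy 1.17.1 and matplotlib 3.10.9.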

Additional observations from a re-analysis of the deposited data

Results flagged for a closer look

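Of 141 named genes, 45 reported here had a difference between SEG and Sox17 cells that itself changed between day 3 and day 7. The test was of the day 7 difference minus the day 3 difference (log2, adjusted p under 0.05 in edgeR's quasi-likelihood test). All 45 kept this call without the 2 day 7 libraries in doubt. Over all genes tested, 3.61% were called positive and 3.87% negative. The named genes include those with the largest such changes, picked from this same contrast, so the count of 45 is a description. No cause was tested.

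Among genes higher in SEG at day 3, the change was negative for the arterial connexin Gja5 (−3.36), Adgrl4 (−3.53), Mest (−2.79), Abca4 (−2.33), Acod1 (−3.93), Hhex (−1.46), Bcl6b (−1.45), Sox7 (−1.23), Esm1 (−1.28), Col18a1 (−0.83), Igfbp3 (−0.70), Lyz2 (−0.58), Lpo (−3.73) and S100g (−5.38). A negative change can be a smaller rise or a reversal. For S100g and Igfbp3 (0.38 at day 3) it exceeded the day 3 rise, so their fitted differences at day 7 lay below 0. Gja5 averaged 875 ± 26.4 CPM in SEG and 71.3 ± 12.2 CPM in Sox17 cells at day 7, against 597 ± 4.77 CPM and 4.74 ± 0.131 CPM at day 3 (SD, n = 3 each). The change was positive for Pecam1 (1.05), Hey1 (0.79), Vwf (2.20), Lyve1 (1.86), Efna1 (1.12), Col15a1 (1.98), Cspg4 (2.48) and Dkk2 (3.66), and Efnb2 (1.26) and Col1a1 (1.04), not called at day 3, also changed. Vwf averaged 24.6 ± 11 CPM in SEG and 2.32 ± 0.467 CPM in Sox17 cells at day 7.

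Among genes lower in SEG at day 3, the change was positive for Pex5l (3.83), Sfrp2 (5.15), Myh11 (3.62), Col28a1 (3.28), Adcy5 (1.57), Prox1 (1.35), Msln (1.32), Bmx (1.14), Xaf1 (1.14), Matn2 (1.06), Pfkfb3 (0.97) and Osr1 (0.51). It was negative for Cxcl5 (−3.54), Crabp1 (−4.37), Tmeff2 (−3.95), Cnn1 (−2.14), Ccn3 (−1.04), Aurkb (−0.78), Ccne1 (−0.73) and Tmem35a (−0.67). A positive change can be a smaller fall or a reversal. For Myh11 and Xaf1 (−0.84 at day 3) it exceeded the day 3 fall, so their fitted differences at day 7 lay above 0. Nos3, the nitric oxide synthase of endothelium, was not called at day 3 and changed by −4.95, or by −7.14 without the 2 libraries in doubt. These fitted values rest on 2 counts over the SEG libraries at day 7 against 55 over the Sox17 libraries, 17.9-fold lower (95% counting interval 4.73 to 152).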

How the results depend on the processing

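Counts of genes depended on a fold minimum and on which libraries estimated the spread. Between SEG and Sox17 at day 3, 3618 higher and 3685 lower genes passed with day 3 libraries alone, 3253 and 3317 with the 6 libraries alone, 3575 and 3700 without replicate 1 of Sox17 and of SEG at day 7, and 754 and 776 beyond 1.5-fold. Leaving out single replicates gave 1733 to 1825 higher and 1736 to 1839 lower, RLE scaling 2094 and 2094, no filter 1808 and 1937, and DESeq2 2248 and 2195. Beyond 1.5-fold the day 7 comparison had 1103 and 1241, the change between days 107 and 148, Erg against control 1682 and 1408, the difference from the Erg effect 1172 and 1362, and list members 107 and 42 (169 and 74 as reported). Members lower numbered 124 with day 3 libraries alone, 117 with the 6 alone and 122 without the 2 day 7 libraries. The day 7 comparison of its own 6 libraries gave 1014 and 1160, and the change between days from its 12 gave 220 and 220, or 1186 and 1204 without the 2 libraries in doubt. Single replicates left out gave 391 to 961 and 420 to 1046 there, the highest without replicate 1 of Sox17 at day 7. The difference from the Erg effect had 4122 and 4143 calls with day 3 libraries alone or the 12 compared, and 4201 and 4032 without the 2 libraries. Causes were not tested.

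With replicate numbers as a block, the day 3 comparison gave 2060 and 2095 calls, day 7 2774 and 3056, the change between days 507 and 543, Erg against control 3335 and 3482, the difference from the Erg effect 2662 and 2596, and list members 168 and 75. Deviations of same-numbered SEG and Sox17 libraries from their group means had correlations of 0.0219, −0.0444 and −0.0914. Those of differently numbered libraries ran from −0.121 to 0.1437. With 3 libraries behind each mean, these values cannot show whether the numbers pair the libraries.

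Of 141 named genes none changed direction. In 31 a call was lost in at least 1 alternative and in 9 one was gained, among them Nos3, Pdgfra, Col1a1 and Mki67 when fewer libraries were fitted. Genes near the floor of 3 counts, such as Cldn5, are limited by depth.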

Other observations

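Interferon response genes, of which 1 of 22 was higher and 2 lower in SEG at day 3, were called higher in 16 and lower in 0 of 22 at day 7 (18.8% and 21.2% of all genes), and in Erg against control cells at day 3 lower in 18 and higher in 0 (23.5% and 22.6%). Cell cycle genes were called lower in 24 and higher in 0 of 26 in SEG at day 7 (21.2% and 18.8%). The day 7 difference minus the day 3 difference was itself called for 5 of the 22 interferon response genes, all positive, and not for 17. It was called for 14 of the 26 cell cycle genes, all negative, and not for 12. Over all genes 3.61% were called positive and 3.87% negative in that test. The replicates at day 7 include both libraries in doubt, and the part of either in these counts was not tested.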
